A study of Rattus norvegicus with 62 samples.

Results

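The ganglion of the injured side was compared with the ganglion of the opposite side in male rats 1 week after chronic constriction of the sciatic nerve, across all expressed genes. The members are the 14 libraries labelled male, 1 week, chosen by their labels from 62 in all: 7 from ipsilateral L4 dorsal root ganglia, here called injured, and 7 from contralateral L4 ganglia, here called opposite. In chronic constriction injury (CCI), loose ligatures around the sciatic nerve damage part of its axons, and the animals develop neuropathic pain. Both groups come from operated animals, so the controls are the other side of injured rats and not ganglia of uninjured rats. The strain, the age and the number of animals are not given in the sources used here. The labels do not tie the male 1-week libraries to separate animals, and p-values then measure the spread between these samples only. For comparison, 5 injured and 5 opposite ganglia of male rats at 5 weeks and 7 of each side from female rats at 1 week were also used.

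A dorsal root ganglion holds the cell bodies of sensory neurons, each wrapped by satellite glia, together with Schwann cells, fibroblasts, vessels and resident macrophages. When the axon of a sensory neuron is cut or crushed, retrograde signals switch its cell body towards growth: stress transcription factors such as ATF3 and JUN are made, peptides such as galanin and neuropeptide Y appear, and genes for channels, receptors and transmission are turned down. Immune cells gather in the ganglion and glia around the injured neurons change state. CCI leaves part of the axons intact, so a ganglion mixes injured and spared neurons. Each library is a whole ganglion: fewer cells of a type and less RNA per cell cannot be told apart.

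The opposite libraries held 24.6 to 33.5 M counts and the injured ones 26.6 to 32.2 M. Ribosomal RNA genes took 4.11 to 5.99% of opposite and 3.75 to 5.64% of injured counts. Hemoglobin genes took 0.0136 to 0.0858% of opposite counts (median 0.0327%) and 0.0639 to 0.221% of injured counts (median 0.0995%), so the median was higher on the injured side and the ranges overlapped. A chi-square per gene between libraries of a side ran from 5.71 to 24.1 over 42 pairs, where counting noise alone gives about 1, so no library was a copy of another. The sides separated fully on the first principal component, which took 55.6% of the variance. On it, injured library 3 (score 17.9) and injured library 6 (25.1) lay nearest to the opposite side, and the other injured libraries scored 36.4 to 54.2. Library 3 was also the injured library nearest to the opposite side for several of the genes described here. In both ganglia of number 7 the interferon-response gene Oasl2 stood far above the rest (29.7 and 39.6 CPM, counts per M counts of the library, with the next at 9.79 and 16.9 CPM). Counts are given without these libraries where that moves them.

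**Figure D1:**
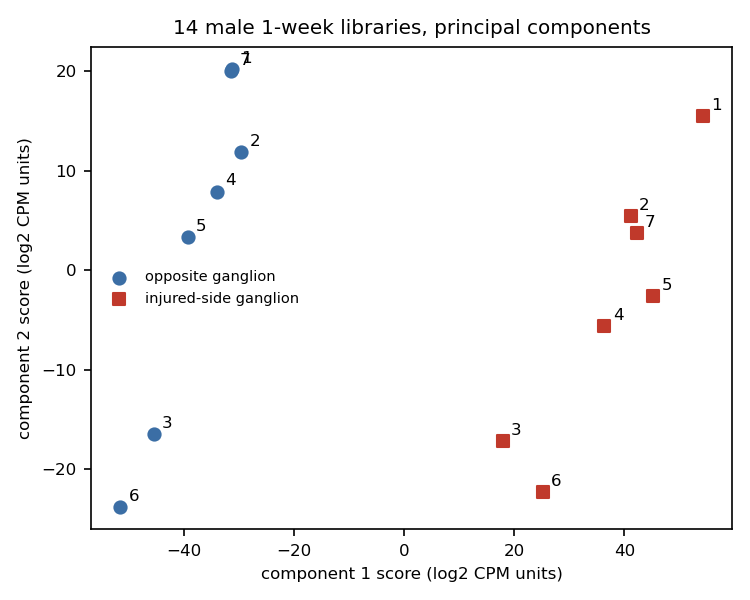
Scores of the 14 libraries on the first 2 principal components of log2 CPM (component 1 on the x axis, component 2 on the y axis); circles are opposite, squares injured ganglia, and numbers are replicate numbers. Opposite libraries score from -51.5 to -29.6 and injured libraries from 17.9 to 54.2 on component 1, with injured library 3 nearest to the opposite side.

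Of 18994 genes tested, 8913 (46.9%) differed between sides at an adjusted p under 0.05, with 4476 (23.6%) higher and 4437 (23.4%) lower on the injured side. These shares are the background for every count of a gene group. A list with shares near these does not stand out from all genes by its counts. Most differences were small: the median absolute log2 fold change of the called genes was 0.32, and 714 genes rose and 234 fell by more than 1.5-fold in a test against that fold. Large changes went mostly upwards, with 884 genes (4.65%) called and over 2-fold higher but 195 (1.03%) called and over 2-fold lower. The sides did not overlap in any library for 11.1% of the tested genes in the upward and 11% in the downward direction. A log2 fold change is the injured minus the opposite side throughout, 1 unit being a doubling, and its median over all tested genes was 0.0071. Without injured library 3 the count was 9032. With the hemoglobin share as a covariate 5463 genes were called, 2709 higher and 2754 lower.

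The largest responses are shown first with the promoters of a few of the genes, because JUN and ATF3, both induced here, bind the motifs TGANTCA (the AP-1 type site) and TGACGTCA (the cAMP response element). The sequences are RefSeq's, build GRCr8, from 250 bases before to 50 after the annotated start, written 5′ to 3′ on the gene's strand. A promoter was listed for 13849 of the tested genes, and for 12 of the 15 largest increases. Npy and Vip are the 2 largest increases with an entry, at chr4:80211861-80212160 and chr1:44470230-44470529, both on the plus strand. Pde6b, a retinal phosphodiesterase subunit (chr14:1511386-1511685, minus strand), and Cxcl14, a chemokine (chr17:8322900-8323199, plus strand), are the largest increases with TGANTCA in the promoter among genes with a mean log2 CPM of at least 1. That choice was made after the motif was searched. The capitals mark that motif, which begins 94 bases before the start in Pde6b and 99 bases before it in Cxcl14.
Npy: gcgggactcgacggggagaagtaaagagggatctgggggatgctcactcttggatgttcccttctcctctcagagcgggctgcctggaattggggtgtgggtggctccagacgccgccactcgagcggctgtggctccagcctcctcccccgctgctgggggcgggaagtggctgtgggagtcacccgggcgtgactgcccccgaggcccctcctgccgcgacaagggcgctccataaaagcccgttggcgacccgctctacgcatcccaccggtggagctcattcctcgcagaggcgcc
Vip: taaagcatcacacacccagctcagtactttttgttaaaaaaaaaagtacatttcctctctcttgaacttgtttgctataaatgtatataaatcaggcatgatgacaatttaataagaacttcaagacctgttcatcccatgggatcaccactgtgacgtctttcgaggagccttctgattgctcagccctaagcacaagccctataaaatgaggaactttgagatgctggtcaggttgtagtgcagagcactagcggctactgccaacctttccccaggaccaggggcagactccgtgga
Pde6b: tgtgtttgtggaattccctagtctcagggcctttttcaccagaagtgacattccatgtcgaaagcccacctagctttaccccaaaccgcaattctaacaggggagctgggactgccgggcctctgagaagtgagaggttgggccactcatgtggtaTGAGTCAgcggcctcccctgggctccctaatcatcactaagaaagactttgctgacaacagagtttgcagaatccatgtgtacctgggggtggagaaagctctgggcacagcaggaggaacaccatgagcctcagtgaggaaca
Cxcl14: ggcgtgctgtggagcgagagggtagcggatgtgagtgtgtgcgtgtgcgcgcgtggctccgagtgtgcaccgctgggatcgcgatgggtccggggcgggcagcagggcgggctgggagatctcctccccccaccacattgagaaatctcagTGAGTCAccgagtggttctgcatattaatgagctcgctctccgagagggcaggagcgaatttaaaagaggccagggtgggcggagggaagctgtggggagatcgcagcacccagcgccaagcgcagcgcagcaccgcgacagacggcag

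Neither motif occurred on either strand in the Npy and Vip windows, nor in those of the other 10 of the 12 largest increases with an entry. TGANTCA occurred on either strand in 5.37% of the 13849 promoters, in 7.21% of the 3370 belonging to genes that were higher, in 4.55% of the 3453 belonging to genes that were lower, in 12.8% of the 658 belonging to genes over 2-fold higher, and in 6.85% of the 146 belonging to genes over 2-fold lower. TGACGTCA occurred in 2.83% of all, in 2.28% of those over 2-fold higher and in 3.01% of those that were lower. The letters of the motifs do not allow one to overlap the other. Pde6b stood at 0.686–2.43 (median 1.66) CPM in opposite and 7.07–18.2 (median 11.4) CPM in injured ganglia, a log2 fold change of 3.00 (SE 0.278). These shares are a description of letters in a window of 300 bases and not of binding.

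The labelled side was visible in each of the injury genes checked. Atf3, which encodes a stress transcription factor (chromosome 13, 102751278 to 102800520, build mRatBN7.2, GeneID 25389), was counted at 6.99–10.8 (median 9.0) CPM in opposite and at 179–295 (median 260.2) CPM in injured ganglia, each given as the lowest and highest of 7 libraries with their median. Every injured library was above every opposite one. Sprr1a, a small proline-rich protein of regrowing axons, had 0 counts in 6 opposite libraries and 1 in library 4 (0.0352 CPM), against 4.6–8.75 (median 6.51) CPM in the injured ones, and no fold is given for it. Gap43, the growth cone protein, went from 170.4–200.1 (median 183) to 437–583 (median 539.7) CPM without overlap.

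Among genes with a mean log2 CPM of at least 1 the largest increase was that of a neuropeptide gene, and Vip and Gal were also among the 15 largest. Npy, which encodes neuropeptide Y (chromosome 4, 78881294 to 78888495), was counted at 0.366–1.26 (median 0.777) CPM in opposite and 156–334 (median 302) CPM in injured ganglia, a log2 fold change of 8.56 (SE 0.295) and adjusted p = 5.99e-15. Injured library 3 was the lowest on its side, at 156 CPM, where the other 6 lay between 238 and 334 CPM. Vip (chromosome 1, 42064878 to 42073219) stood at 0.0624–0.226 (median 0.141) CPM in opposite and 16–44.2 (median 32.9) CPM in injured ganglia, with a log2 fold change of 7.67 (SE 0.328). The opposite level is a handful of counts per library, and libraries 6 and 3 were the lowest injured ones. Gal, which encodes galanin, went from 3.78–6.37 (median 4.83) to 117–175 (median 155) CPM (log2 fold change 4.89 (SE 0.198)). Of 24 tested genes for induced peptides and growth signals, 16 were higher and 1 lower (Nrg1, the neuregulin gene, -0.68 (SE 0.0496)), and their median log2 fold change was 1.70. Of 18 tested genes on a list for peptides of uninjured nociceptors 6 were higher and 7 lower, and with the hemoglobin share as covariate 4 and 3. Of the 6, Ucn (urocortin), Pdyn (prodynorphin) and Cck (cholecystokinin) were near 0 in opposite ganglia, so the name of the list does not describe them there. Ucn stood at 0–0.130 (median 0) CPM in opposite and 1.46–2.88 (median 2.05) CPM in injured ganglia, Pdyn at 0.0376–0.227 (median 0.141) and 1.46–2.48 (median 1.94) CPM, and Cck at 0.113–0.289 (median 0.227) and 0.747–1.77 (median 1.53) CPM. These 3 and Edn3, an endothelin gene (0.99 (SE 0.206)), did not overlap between sides. Tac1, the precursor of substance P, (158–205 (median 178) against 183–288 (median 223) CPM) and Calca, that of CGRP, (616–808 (median 707) against 726–1114 (median 833) CPM) were called higher by 0.34 and 0.29 on the log2 scale, with overlapping sides. Calca was not called without opposite library 1, 2 or 7 or injured library 6 or 7 (log2 fold changes of 0.22 to 0.28), and Tac1 not without injured library 6 (0.27). Nmb (neuromedin B), Chga (chromogranin A) and Sst (somatostatin) fell without overlap, Nmb from 34.1–47 (median 42.2) to 14.3–31.1 (median 20.5) CPM.

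Genes of varied kinds made up the rest of the 15 largest increases. Csrp3, a muscle LIM protein gene (chromosome 1, 98528067 to 98546647), went from 0–0.263 (median 0.106) to 22.9–32.7 (median 28.7) CPM. Ptprh, a receptor tyrosine phosphatase gene, went from 0.0826–0.437 (median 0.199) to 29.1–51.2 (median 40.2) CPM, and Stac2, whose protein binds voltage-gated calcium channels, from 0.421–1.22 (median 0.744) to 57.9–113 (median 81.7) CPM. No injured library of these 3 genes came near the opposite range. Reg3b and Reg3a encode secreted C-type lectins. Reg3b stood at 0.454–1.16 (median 0.842) against 36.4–68.1 (median 42.8) CPM and Reg3a at 0.531–2.32 (median 0.866) against 5.17–13.4 (median 11.9) CPM. Injured library 3 was far below the rest for Reg3a (5.17 CPM against 10.8 CPM in the next), as was opposite library 4 far above (2.32 CPM). Tgm1, a transglutaminase gene, rose by 5.06 (SE 0.275), Ecel1, a neuronal endopeptidase gene, by 3.79 (SE 0.187), and Tslp, a cytokine gene, by 3.76 (SE 0.24) on the log2 scale. Smagp and Cdhr5, both for membrane proteins, rose by 3.73 (SE 0.156) and 3.35 (SE 0.186). These 5 genes were higher in 7 of 7 pairs without overlap.

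Serpina3n, a serine protease inhibitor gene, rose by 5.95 (SE 0.894) with a far larger error than its neighbours. Its injured values fell into a high set, libraries 1, 5 and 6 at 316, 260 and 178 CPM, and a low set of 4 libraries at 42.7 to 54.7 CPM. The opposite ganglia of the same numbers, 1, 5 and 6, were also the highest of their side, at 5.25, 6.40 and 2.45 CPM against 0.263 to 0.592 CPM in the other 4.

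**Figure D2:**
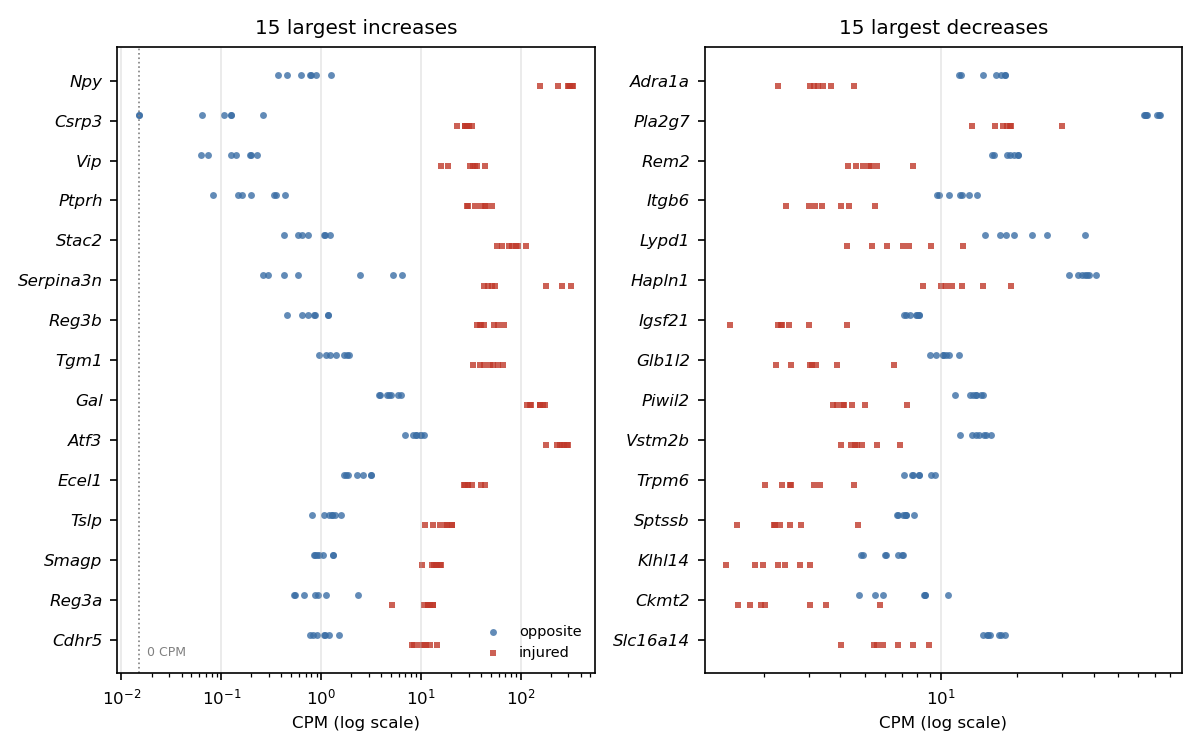
CPM of each library on a log axis for the 15 largest increases (left) and the 15 largest decreases (right) that were called, had the same sign in all 7 pairs, a mean log2 CPM of at least 1 and a gene symbol; circles are opposite and squares injured ganglia, and the dotted line marks 0 CPM. The sides are apart for every gene but Ckmt2, and injured values for Serpina3n form a high and a low set.

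Of transcription factors listed for the injury response, 22 of 26 tested were higher and 0 lower, with a median log2 fold change of 0.84. Without injured library 3 the count was also 22. This list and those of induced peptides and growth cone genes are named for injury responses. They were chosen with earlier results of these data known, so their counts are a description and not a test. Jun went from 85.8–117 (median 101) to 266–351 (median 327) CPM and Sox11, a factor of growing neurons, from 1.62–2.32 (median 1.9) to 11.7–19 (median 14.4) CPM, both without overlap. Nfil3, a basic leucine zipper factor also listed with the clock genes, rose by 1.74 (SE 0.144). Growth cone and regeneration genes were higher in 25 of 27 and lower in 0, median 0.77. Ankrd1, another gene best known from muscle, was near 0 in opposite ganglia (0.0972–0.249 (median 0.165) CPM) and stood at 8.09–19.1 (median 12.9) CPM in injured ones, and Flrt3, an adhesion protein gene, went from 16–19.8 (median 18.6) to 79.4–139 (median 122) CPM. With the replicate number as a block 25 growth cone genes were higher and 1 lower.

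The 15 largest decreases were smaller in log2 units than the 15 largest increases. Adra1a, the receptor gene through which noradrenaline acts on alpha-1A sites (chromosome 15, 40830125 to 40935902), dropped from 11.8–17.9 (median 16.5) to 2.28–4.51 (median 3.28) CPM, with adjusted p = 7.42e-11. Pla2g7, which encodes the platelet-activating factor acetylhydrolase of plasma, dropped from 63.3–73.3 (median 65) to 13.2–29.9 (median 18.2) CPM. Rem2, a small GTPase gene whose protein restrains calcium channels, dropped from 15.9–20.2 (median 18.7) to 4.3–7.78 (median 5.2) CPM. For Pla2g7 and Rem2 injured library 3 was far from the other injured libraries, towards the opposite side (29.9 CPM with the next at 18.8, and 7.78 CPM with the next at 5.56). Itgb6 (an integrin subunit), Lypd1 (a modulator of nicotinic receptors), Hapln1 (a link protein of perineuronal nets) and Igsf21 (a synaptic adhesion protein) had log2 fold changes of -1.64, -1.58, -1.58 and -1.57. Piwil2, a germ-line small RNA factor gene, Trpm6, a magnesium-conducting channel gene, and Sptssb, a subunit gene of the enzyme that begins sphingolipid synthesis, had values of -1.52, -1.48 and -1.44. Glb1l2, Vstm2b, Klhl14 and the transporter gene Slc16a14 lay between -1.54 and -1.34. Ckmt2, a mitochondrial creatine kinase of muscle, was the exception in that its sides overlapped (4.75–10.6 (median 8.59) against 1.58–5.73 (median 2.01) CPM, adjusted p = 0.00267).

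In terms of RNA amount rather than fold, the largest shifts were in the cytoskeleton and in myelin. The 3 neurofilament subunits, which fill large axons, summed to 25918 CPM (SD 815, n = 7) in opposite and 14759 CPM (SD 2132, n = 7) in injured ganglia. Nefm (chromosome 15, 42360449 to 42365753) alone dropped from 9496–11082 (median 10145) to 4573–7277 (median 5571) CPM, Nefl from 8132–8921 (median 8363) to 3315–6045 (median 4536) CPM and Nefh from 6959–7588 (median 7379) to 3780.1–5585 (median 4529) CPM. The sides were apart for each, and injured library 3 held the most of all 3 on its side. Map1b and Map1a, microtubule-associated proteins, dropped by smaller amounts (log2 fold changes -0.34 and -0.45). Upwards, 11 tubulin genes summed to 13170 CPM (SD 396) and 17035 CPM (SD 823). Tubb3, the neuronal beta tubulin, went from 3280.0–3536 (median 3419.6) to 4481–5192 (median 4788) CPM. Stmn2, a growth-associated regulator of microtubules, went from 1901–2198 (median 2032) to 2638–2984 (median 2868) CPM and Prph, the intermediate filament of small neurons, from 1714–1895 (median 1818) to 2346–2992 (median 2489) CPM. Tuba1a, Tubb2a, Tubb2b, Vim and Spp1 (osteopontin) gained as well, with log2 fold changes of 0.33, 0.64, 1.08, 0.55 and 0.70. Tubulin genes are close copies of each other, and reads could be split among them. Within the list of transport motors, tubulins and filaments 14 of 41 were higher and 20 lower.

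**Figure D3:**
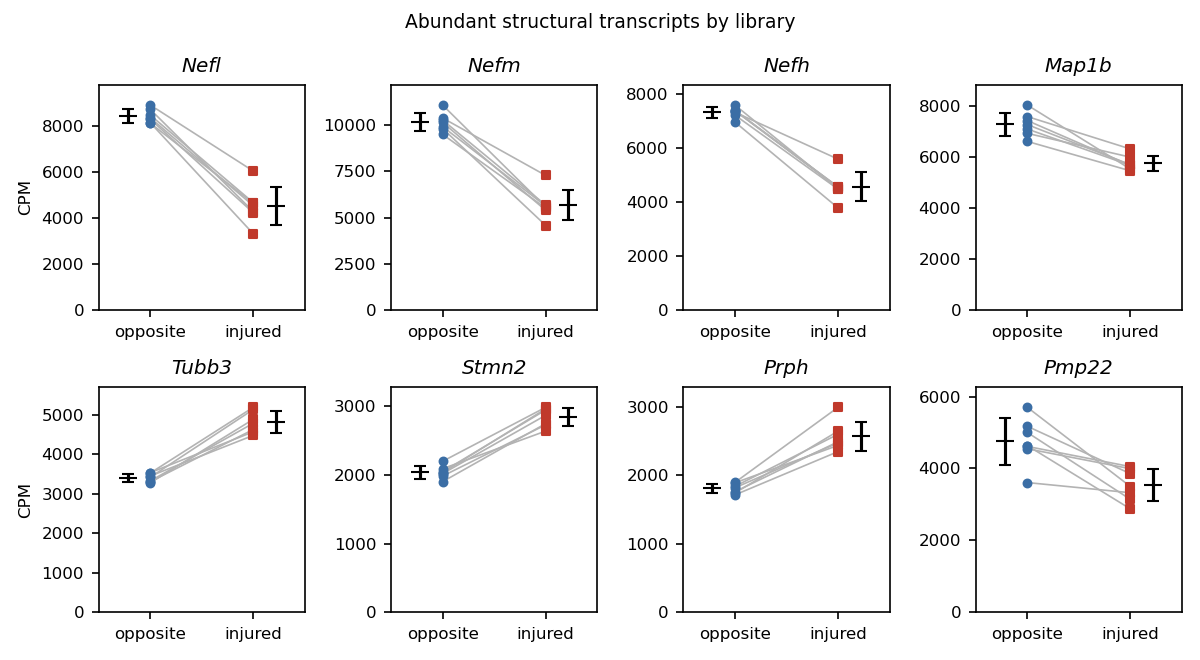
CPM of 8 abundant transcripts (y axis from 0) in opposite (circles) and injured (squares) ganglia; lines join libraries of 1 replicate number, and bars beside the points give mean and SD (n = 7). Nefl, Nefm and Nefh drop in every pair, Tubb3, Stmn2 and Prph gain in every pair, and Pmp22 overlaps between sides.

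Potassium channel genes, which set resting excitability and spike repolarisation, fell broadly: 44 of 69 tested were lower and 7 higher, with a median of -0.40, and 41 to 44 were lower when 1 male 1-week library was left out. Kcns3 and Kcns1, silent partners of Kv2 channels, dropped from 75.2–97.3 (median 82.3) to 28–44.1 (median 30.9) and from 95.1–109.8 (median 96.2) to 32.9–66.9 (median 38.2) CPM. Kcnip3 (the auxiliary protein DREAM) and Kcnh7 (an ERG channel) had log2 fold changes of -1.28 and -1.32. These 4 genes did not overlap between sides. The 7 higher ones included Kcnmb4, a BK channel partner (0.87 (SE 0.0917)). Of the 17 sodium channel genes 11 were lower and 3 higher, median -0.33. Scn1a, the channel of large fibres, dropped from 191–212 (median 199) to 85.2–134 (median 105) CPM and Scn8a from 318–350.3 (median 333) to 170.1–258 (median 193) CPM, while Scn11a, a channel of nociceptors, had -0.59 (SE 0.141). Against these falls Scn3a, the channel of embryonic neurons, was higher by 0.57 (SE 0.0811) and the beta subunit gene Scn3b by 0.81 (SE 0.0594). With the hemoglobin share as covariate 6 sodium channel genes were lower and 3 higher.

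Of 28 calcium channel genes 6 were higher and 9 lower, beside 23.6% and 23.4% of all tested genes. Cacna2d1, the alpha-2-delta-1 subunit that gabapentin binds, went from 46.8–58 (median 50.2) to 159–247 (median 232) CPM, a log2 fold change of 2.06 (SE 0.0991) without overlap. Cacnb1 was higher by 0.72 (SE 0.0508), whereas Cacna1i (a T-type channel) had -0.90. Cacng2 and Cacng5, which are in the list by gene name only, had -0.95 and -0.81. Among 29 TRP, acid-sensing, mechanosensitive and HCN channel genes 8 were higher and 12 lower. Trpv1, the capsaicin receptor, had -0.34 (SE 0.0893), and Hcn2, a pacemaker channel, -0.48 (SE 0.0844) with overlapping sides. Piezo1 and Trpv2 were higher by 0.66 (SE 0.129) and 0.39 (SE 0.0334).

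Receptor genes for transmitters and peptides moved in both directions. Cckbr, the cholecystokinin B receptor, stood at 0.246–0.583 (median 0.312) CPM in opposite and 6.22–11.5 (median 9.38) CPM in injured ganglia, and Sstr3, a somatostatin receptor, at 0.187–0.669 (median 0.421) and 2.86–5.45 (median 4.87) CPM. Npy2r, a receptor of neuropeptide Y, went from 9.23–13.5 (median 10.8) to 21–29.2 (median 26.1) CPM. Of the 55 G-protein-coupled receptors 15 were higher and 22 lower. The lower ones included the serotonin receptors Htr2c and Htr1d (-1.34 (SE 0.171) and -1.30 (SE 0.149)), the histamine receptor Hrh3 (-1.18 (SE 0.0944)) and Oprm1, the mu opioid receptor (-0.52 (SE 0.139)), which overlapped between sides. GABA and glutamate receptor subunits gave 8 of 34 higher and 16 lower. Gabra5 went from 5.03–7.32 (median 6.17) to 19.4–31.6 (median 28.5) CPM and Gabrb1 from 1.05–1.94 (median 1.53) to 3.92–8.31 (median 5.49) CPM, each without overlap. The glutamate receptor genes Grm4 and Gria2 had -1.07 and -0.77, and Grin2b had 0.87.

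By neuron type, markers of large myelinated neurons were lower in 13 of 16 and higher in 2, with a median of -0.65, and each fit that left out 1 male 1-week library gave 13. Beside the neurofilaments and Scn1a these were Ntrk3, the receptor of neurotrophin 3 (264–299 (median 279.8) against 165–209 (median 181) CPM), Pvalb (132–160.0 (median 138) against 69.1–103 (median 90.01) CPM) and Esrrg, a nuclear receptor of proprioceptors (-0.91 (SE 0.0957)). The 2 higher were Calb1, a calcium buffer (1.58–3.22 (median 3.14) against 5.77–11 (median 9.04) CPM), and Spp1. Markers of non-peptidergic nociceptors and of low-threshold C fibres were lower in 13 of 22 and higher in 3, median -0.42. Mrgprd, an itch and pain receptor, dropped from 10.7–15 (median 13.3) to 4.29–9.42 (median 8.03) CPM. Gfra1, a GDNF receptor, went the other way from 231–280.1 (median 254) to 553–721 (median 661) CPM. With the hemoglobin share as covariate 6 of this list were lower. Peptidergic markers were split, 6 of 12 higher and 4 lower, with Gfra3 higher by 0.62 (SE 0.0695), and with that covariate 3 and 2. The 6 include Gal, which is also on the list of induced peptides, and Tac1 and Calca, whose calls were lost in some fits. Prdm12, a nociceptor transcription factor, had a log2 fold change of -0.53.

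Genes of transmitter release fell in 26 of 39 and rose in 5, median -0.33. Snap25 and Vamp1, core proteins of vesicle fusion, dropped from 1027–1166 (median 1103) to 526–729 (median 647) and from 959–1127 (median 1085) to 525–783 (median 589) CPM. Amph, of vesicle retrieval, had -0.78 (SE 0.0571). Syt4, a synaptotagmin induced by activity, was higher by 0.98 (SE 0.0781). Axon guidance genes gave 13 of 56 higher and 17 lower with a median of -0.0014, beside 23.6% and 23.4% of all tested genes. Draxin, a secreted guidance protein, stood at 0.156–0.389 (median 0.339) CPM in opposite and 4.89–9.98 (median 7.56) CPM in injured ganglia and Sema6a at 34.1–39.3 (median 36.3) and 137–233 (median 201) CPM, while Sema7a dropped from 194–218 (median 204) to 83.3–130.2 (median 96.5) CPM. Trophic receptor genes gave 9 of 26 higher and 8 lower, beside the same 23.6% and 23.4%. Bdnf, the brain-derived neurotrophic factor gene, went from 14–18.1 (median 15.3) to 35.9–55.7 (median 53.3) CPM. Sorl1, a sorting receptor, dropped from 126–170.4 (median 135) to 46.7–99.8 (median 59.9) CPM, and Gfra2 had -0.59 (SE 0.13).

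Genes of the ribosome and of the respiratory chain moved by small steps in opposite directions. Cytosolic ribosomal protein genes were higher in 72 of 76 and lower in 0, with a median log2 fold change of 0.23 and 57 without overlap, and 0 passed a test against 1.5-fold. Rps3 went from 131–144 (median 134) to 164–183 (median 175) CPM. These genes have many processed copies, and how reads shared with the copies were counted is not given in the sources used here. Nuclear-encoded subunits of oxidative phosphorylation were lower in 49 of 74 and higher in 0, median -0.17. Ndufs1 of complex I dropped from 188–210.3 (median 191) to 139–157 (median 146) CPM and Sdha of complex II had -0.36 (SE 0.0387). With the hemoglobin share as covariate 29 were lower and 70 ribosomal protein genes were higher. Glycolysis genes gave 12 of 24 higher and 5 lower. Slc16a3, the lactate exporter of glycolytic cells, went from 0.696–1.32 (median 1.23) to 2.09–7.21 (median 3.01) CPM, and Pfkm, the muscle-type phosphofructokinase, dropped from 362–389 (median 379) to 241–302 (median 268) CPM. Cholesterol and fatty acid synthesis genes were lower in 15 of 34 and higher in 9, with Idi1, an isomerase gene of the cholesterol pathway, among the lower (-0.30 (SE 0.0531)).

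Growth arrest genes of the p53 pathway were higher in 14 of 21 and lower in 1. Cdkn1a, the cell cycle inhibitor p21, went from 4.13–5.67 (median 4.61) to 16.3–28.1 (median 25.4) CPM and Gadd45a from 17.2–21 (median 20.1) to 74.7–114 (median 100.4) CPM. Rprm, the reprimo gene, was the 1 that fell (-0.70 (SE 0.097)). Aminoacyl-tRNA synthetase genes and targets of ATF4 gave 14 of 38 higher and 9 lower: Trib3 was higher (1.32 (SE 0.192)), while Chac1 (-0.42 (SE 0.0704)) and Psat1 (-0.47 (SE 0.0695)) were lower. Clock genes were called in 4 of 19 upwards and 1 downwards, beside 23.6% and 23.4% of all tested genes. Nfil3 and Bhlhe41 (0.51 (SE 0.0567)) were among the higher ones, and Cry2 was the lower one (-0.20 (SE 0.0341)). With the replicate number as a block 9 were higher and 3 lower. Clock hours of collection are not given in the sources used here.

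**Figure D4:**
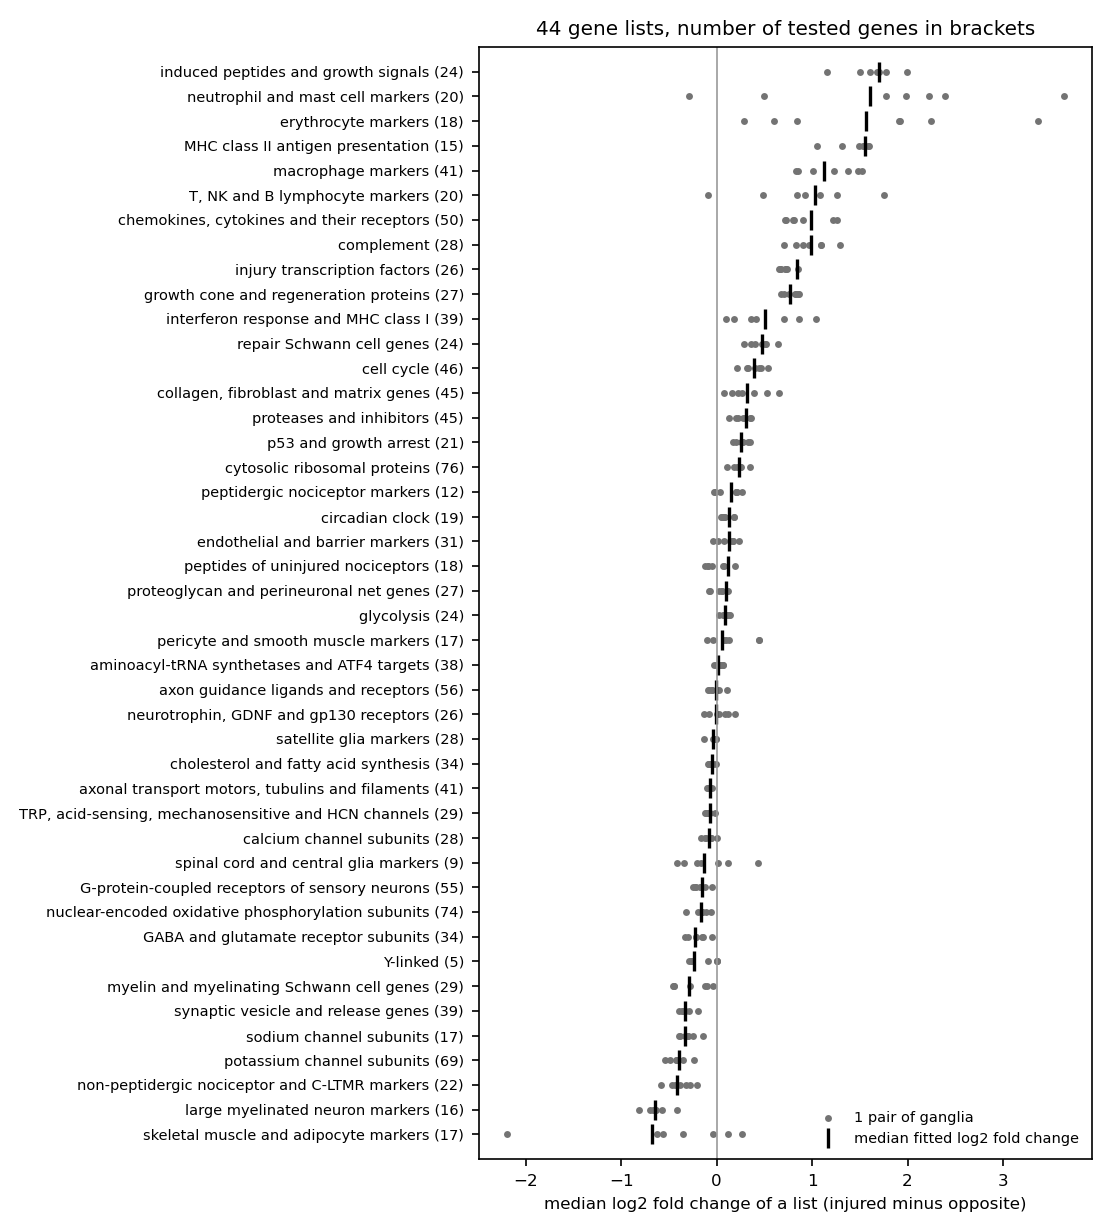
Median log2 fold change over the tested genes of each of 44 gene lists: grey points are the 7 pairs of ganglia joined by replicate number and black bars the median fitted over all 14 libraries, on an x axis in log2 units. The injury factor, induced peptide and growth cone lists lie above 0 in every pair, and potassium channel and large myelinated neuron lists below 0. The erythrocyte and neutrophil lists spread most.

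Macrophage and antigen presentation genes rose. Macrophage markers were higher in 33 of 41 and lower in 0, median 1.13. Of the 41, 10 were higher without overlap, beside 11.1% of all tested genes. The list summed to medians of 3706 CPM in opposite and 4275 CPM in injured ganglia. Arg1, arginase, went from 1.02–1.96 (median 1.29) to 11.1–17.2 (median 15.5) CPM and Lyz2, lysozyme, from 57.4–142 (median 116) to 154–526 (median 360.0) CPM, both without overlap. Fcgr3a, an Fc receptor, overlapped between sides (0.659–4.82 (median 0.909) against 2.18–12.7 (median 5.66) CPM). All 15 genes of MHC class II antigen presentation were higher, median 1.56, among them Cd74, the invariant chain (36–82.3 (median 75.5) against 142–339.5 (median 244) CPM), and RT1-Da (9.37–25.5 (median 20.9) against 40.9–93.5 (median 68.8) CPM). Complement genes were higher in 22 of 28 and lower in 0, but the sides overlapped for C3 (2.99–16.1 (median 4.57) against 8.4–43.7 (median 18.9) CPM), C4a (17.8–206 (median 43.2) against 112–432 (median 168) CPM) and C1qb. Rat C4a has a close copy, so its share of reads is uncertain. Chemokine and cytokine genes were higher in 33 of 50 and lower in 1 (Ackr1, a chemokine scavenger of venules, -0.37 (SE 0.0613)). Csf1, the macrophage growth factor that injured neurons are known to make, went from 15–21 (median 18.4) to 60.4–101 (median 80.7) CPM, and Ccl2, a monocyte attractant, from 8.29–10.4 (median 9.07) to 23.3–36.8 (median 30.9) CPM. Cxcl14, one of the promoters printed, went from 0.715–2.88 (median 1.2) to 4.3–7.12 (median 6.07) CPM.

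Blood and marrow markers were also called higher more often than lower. Of 18 erythrocyte genes 15 were higher and 1 lower, their summed level was 526 to 1386 CPM in opposite and 1088 to 2873 CPM in injured ganglia, and 0 of the 18 was at 0 in all libraries. Hbb, beta globin, stood at 23–148 (median 51.1) CPM in opposite and 103–389.8 (median 177) CPM in injured ganglia. Of 20 neutrophil and mast cell genes 15 were higher and 0 lower, with summed levels of 73.2 to 173 and 129 to 308 CPM; of the 23 in the table Mcpt4 was at 0 in every library. Mmp8 and Mpo, proteins of neutrophil granules and their precursors, stood at 0.0664–4.05 (median 1.06) against 2.42–11.6 (median 6.7) and 0.332–5.6 (median 1.13) against 2.05–10.4 (median 7.71) CPM. The medians of the neutrophil and mast cell list ran from -0.29 to 3.64 over the 7 pairs and those of the erythrocyte list from 0.29 to 3.37. Lymphocyte markers were higher in 9 of 20 and lower in 0, summed at 44 to 88.7 and 70.2 to 155 CPM, with Klrb1 at 0 throughout. Pax5 and Cd79b, B cell genes, stood at 0.249–0.880 (median 0.476) against 1.24–5.2 (median 2.38) and 0.166–3.24 (median 0.748) against 1.16–11.6 (median 2.47) CPM. Cd79b was not called without opposite library 3, 6 or 7 (1.37 to 1.44) or without injured library 1 (0.85).

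With the hemoglobin share as covariate the count of higher genes went from 15 to 1 for neutrophil and mast cell markers, from 9 to 4 for lymphocyte markers, from 22 to 15 for complement, from 33 to 24 for chemokines and cytokines, from 33 to 27 for macrophage markers and from 15 to 11 for MHC class II. Hemoglobin itself was higher on the injured side, so that covariate is partly the side, and the part of blood or marrow cells in these results was not tested. Of neuronal lists, with that covariate the higher genes went from 7 to 4 for potassium channels, from 8 to 5 for the TRP, acid-sensing, mechanosensitive and HCN group and from 8 to 5 for GABA and glutamate receptors, and the lower ones from 22 to 14 for G-protein-coupled receptors and from 8 to 5 for trophic receptors. Of other lists, the higher genes went from 9 to 5 for cholesterol and fatty acid synthesis, and the lower ones from 17 to 11 for myelin, from 9 to 5 for satellite glia, from 9 to 5 for perineuronal net and proteoglycan genes, from 5 to 2 for glycolysis and from 7 to 2 for muscle and adipocyte genes. Cell cycle genes, which marrow precursors also express, were higher in 31 of 46 and lower in 1, and higher in 10 with that covariate. Mcm5, of DNA replication, went from 3.34–4.45 (median 3.8) to 6.6–13.1 (median 10.5) CPM, and Aurkb and Bub1b, of mitosis, were higher by 1.16 (SE 0.21) and 0.97 (SE 0.179). With that covariate neither was called, at 0.51 (adjusted p = 0.118) and 0.46 (adjusted p = 0.106). The summed level of the cell cycle list was 419 to 465 CPM in opposite and 504 to 577 CPM in injured ganglia.

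The count of interferon-response and MHC class I genes moved with the libraries that were fitted. Of 39 tested 14 were higher and 0 lower, with a median of 0.50 and 0 genes without overlap. Without opposite library 7 the count was 33, without injured library 7 it was 7, with only the 14 libraries in the fit it was also 7, and with the replicate number as a block 27 were higher and 1 lower. Mx1, an antiviral GTPase, stood at 8.43–51.9 (median 15.3) CPM in opposite and 17.3–92.9 (median 32.9) CPM in injured ganglia, and Ifi47 at 3.18–13.7 (median 4.91) and 7.38–28 (median 11.4) CPM. Mx1 was not called without injured library 7 (0.82, adjusted p = 0.0771) or with only the 14 libraries (1.14, adjusted p = 0.0541). The summed level of the list was 1120 to 2524 CPM in opposite ganglia and 1349 to 3127 CPM in injured ones.

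Lists named for glial states moved in different directions. Of 24 repair Schwann cell genes 17 were higher and 3 lower. Jun, Gap43, Bdnf, Ccl2, Cdkn1a and Nrg1 of that list also stand in the injury, growth, peptide or growth arrest lists above. Its count is therefore not one of glia alone, and which cells changed was not tested. Of 29 myelin genes 17 were lower and 1 higher, with a median of -0.29. Pmp22, a protein of compact myelin, was counted at 3609–5702 (median 4639) CPM in opposite and 2876–4051 (median 3498) CPM in injured ganglia, with overlapping sides. Pmp2, another protein of peripheral myelin, was apart (355–482 (median 413) against 144–314 (median 197) CPM), as was Fads6, a fatty acid desaturase gene (-0.91 (SE 0.0821)). The 1 myelin-list gene that was higher was the lineage factor Sox10 (0.13 (SE 0.0469)), which was not called when opposite library 5 or 6 was left out (0.11 and 0.09). Gfap, an intermediate filament of reactive glia, went from 13–26 (median 19.5) to 53.9–108 (median 79.5) CPM. Of 28 satellite glia markers 7 were higher and 9 lower, beside 23.6% and 23.4% of all tested genes. Kcnj10, the potassium channel of satellite glia, dropped from 190.2–231 (median 205) to 150.3–174 (median 165) CPM and Fabp7 had -0.40 (SE 0.127), while Entpd2 was higher by 0.63 (SE 0.063).

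Matrix genes were called in 13 of 45 upwards and 2 downwards, beside 23.6% and 23.4% of all tested genes. With the replicate number as a block 26 were higher and 4 lower, and without opposite library 6 or injured library 4 the count of higher genes was 8. It was 20 by limma-voom, and with the hemoglobin share as covariate 5 were higher and 1 lower. Col16a1 went from 155–199 (median 179) to 346–401 (median 370.0) CPM and Fn1, fibronectin, overlapped (60.7–189.5 (median 154) against 165–308 (median 259.7) CPM). Fbln2, a fibulin, had -0.50 (SE 0.0618). Perineuronal net and proteoglycan genes gave 10 of 27 higher and 9 lower. Hapln1 and Hapln4, link proteins of nets, dropped from 31.9–40.9 (median 37.1) to 8.49–18.9 (median 11.1) and from 94.1–122 (median 107) to 33.9–66.9 (median 40.4) CPM, while Sdc1, a cell surface proteoglycan, went from 4.14–7.6 (median 5.77) to 18.2–28.3 (median 21.9) CPM. Proteases and their inhibitors were higher in 22 of 45 and lower in 4. Mmp19, a matrix metalloproteinase gene, went from 6.08–10.05 (median 8.42) to 20.8–27.5 (median 26.2) CPM. Adam22, a synaptic partner of LGI proteins, had -0.54 (SE 0.0666).

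Vessel genes changed in few cases, 4 of 31 endothelial genes higher and 3 lower, and 2 of 17 pericyte and smooth muscle genes higher. With the block the counts were 12 higher and 5 lower for endothelial genes and 4 higher for the pericyte list. Icam1, an adhesion molecule of inflamed vessels, went from 4.91–9.52 (median 7.6) to 9.94–17.4 (median 14.9) CPM. Among markers of tissue outside the ganglion, 9 of 19 spinal cord and central glia genes passed the filter and 1 was higher and 1 lower. Their summed level was 80.2 to 97.9 CPM in opposite and 52.6 to 75.7 CPM in injured ganglia, and Olig2, Mnx1 and Lbx1 were at 0 in all 14 libraries. With the block 1 was higher and 3 were lower. The lower one without it was Isl2, a sensory and motor neuron factor that ganglia also express (-0.63 (SE 0.121)). Muscle and adipocyte genes were lower in 7 of 17 and higher in 2, summed at 183 to 299 CPM in opposite and 125 to 151 CPM in injured ganglia. Ckm, the muscle creatine kinase, stood at 13.5 CPM in opposite library 7 and at 0.624 to 1.17 CPM in the other 6, and without that library its log2 fold change was -0.29 (adjusted p = 0.655), and 4 of the list were lower, as they were by limma-voom. Ckm was also not called without any 1 of injured libraries 1 to 6 (-1.92 to -1.76). Pvalb in this list is also a marker of large neurons. Its medians, given above, made up most of the list's median sums of 191 CPM in opposite and 134 CPM in injured ganglia. The fall of the sum is therefore not one of muscle and adipocyte genes alone.

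Several of the 8 genes that varied most among injured ganglia had high and low sets of libraries that shared replicate numbers across the sides. Serpinb1b, a protease inhibitor gene, stood at 220 to 222 CPM in the opposite and 184 to 195 CPM in the injured ganglia of numbers 1, 2 and 3, at 10.4 to 14.8 CPM in both ganglia of 4, 5 and 7, and at 515 and 464 CPM in number 6. Its log2 fold change was -0.18 (SE 1.1), adjusted p = 0.908, and with the block it was -0.19 with adjusted p = 0.000892. Fam111a, of antiviral defence and DNA replication, stood at 1.46 to 2.68 CPM in both ganglia of 2, 3 and 4 and at 23.9 to 42.5 CPM in the rest. RT1-CE16, an MHC class I gene, was low in both ganglia of 3, 5 and 6 (7.83 to 16.1 CPM) and 33.3 to 92.8 CPM in those of 1, 2, 4 and 7. Its change was 0.60 (SE 0.632) (adjusted p = 0.47) and 0.56 (adjusted p = 7.88e-06) with the block. Copies of MHC class I genes share reads, so its level is uncertain. Slfn4, Rsad2 and Oasl2, interferon-response genes, were highest in opposite library 7 on that side (61.1, 41.3 and 29.7 CPM). On the injured side Rsad2 was highest in number 1 (44 CPM), and none of the 3 was called. With the block Slfn4 was called (0.94, adjusted p = 0.0304), and without opposite library 7 all 3 were (1.85, 1.73 and 1.02). Ptgds, prostaglandin D synthase of meninges and glia, stood at 452 and 229 CPM in injured libraries 2 and 4 and at 34.6 to 89.9 CPM in the other 5, against 35.8–95.6 (median 65.4) CPM on the opposite side (log2 fold change 1.13 (SE 0.503), adjusted p = 0.0708). Ptgds was called without injured library 6 or 7 (1.30 and 1.31).

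**Figure D5:**
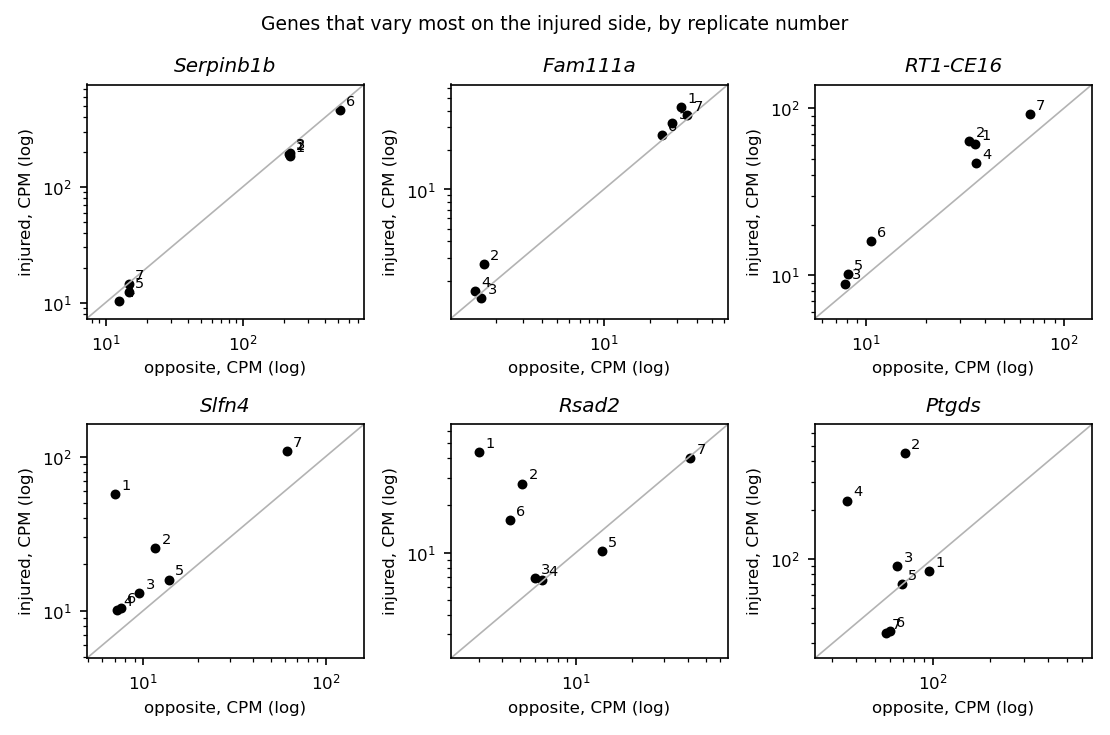
CPM in the injured ganglion (y axis) against CPM in the opposite ganglion (x axis) of the same replicate number, both on log axes, for 6 of the 8 genes with the largest spread among injured libraries; numbers are replicate numbers and the line marks equality. Serpinb1b, Fam111a and RT1-CE16 lie along the line in separate sets of libraries, whereas injured libraries 2 and 4 leave it for Ptgds.

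The difference between sides at 1 week was then set against that at 5 weeks in males, in 1 model with the interaction tested. Of the 18994 genes 40 (0.211%) had a difference of sides that changed between weeks, 25 higher and 15 lower at 1 week, and 1997 had an unadjusted p under 0.05. The count was 98 without injured library 3 of 1 week, 25 without opposite library 2 of 5 weeks, 138 by DESeq2 and 499 with the replicate number as a block. Itga7, a laminin-binding integrin of growing axons, was higher on the injured side by 0.77 (SE 0.0338) at 1 week and 0.36 at 5 weeks, with a difference of 0.41 and adjusted p = 0.000244. Tph2, the neuronal enzyme of serotonin synthesis, averaged 9.15 and 43.4 CPM on the opposite and injured side at 1 week and 9.71 and 20.7 CPM at 5 weeks (difference 1.15). Grem1, a BMP antagonist, was higher by 1.36 at 1 week and had -0.22 at 5 weeks. Stat3, a transcription factor of cytokine signals, was higher by 0.46 and 0.24, a difference that was not called without opposite library 2 or injured library 5 of 5 weeks (0.20 in each). In the other direction Cdk18, Cpne9 and Cdh22 were higher by 0.60, 0.61 and 0.76 at 1 week and by 1.74, 1.69 and 2.38 at 5 weeks. Chrm2, a muscarinic receptor gene, had a log2 fold change of -0.33 at 1 week and 0.37 at 5 weeks, a difference of -0.70 with adjusted p = 0.0164. For Npy the difference of sides was 0.59 (adjusted p = 0.796) and for Atf3 0.34 (adjusted p = 0.635) between weeks.

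Against females at 1 week the difference of sides changed for 218 of 19223 genes (1.13%), 135 higher and 83 lower in males, and for 524 with the block. The male and female 1-week libraries were deposited in separate tables. Sex, table and any batch that goes with the table therefore cannot be told apart. In the female arm the ribosomal RNA share was 1.69 to 2.76% in opposite and 0.692 to 1.42% in injured ganglia without overlap, where the male shares overlap, and its part in these genes was not tested. Of the 135, 129 were genes called lower on the injured side in females. Ro60, an RNA-binding protein gene, averaged 11.8 CPM (SD 1.03) and 14 CPM (SD 1.18) on the opposite and injured side in males and 19.3 CPM (SD 2.41) and 6.39 CPM (SD 1.67) in females, a difference of 1.85 with adjusted p = 8.75e-15. Zbtb41, a zinc finger gene, and Arfgef3, of vesicle traffic, did not pass the test in males (0.09 and 0.03) and were lower in females (-1.56 and -1.14), with differences of 1.65 and 1.18. Plcxd3 and Dmxl1 were lower in both sexes, with -0.46 and -0.21 in males and -1.55 and -0.94 in females. Among the 83, Nmnat1, the nuclear NAD synthesis enzyme, had -0.17 in males and 0.29 in females, and the long noncoding RNA Miat -0.35 and 0.20. Leng8 and Pcgf1 were higher in females (0.51 and 0.54) and did not pass the test in males.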

How the data were processed

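Poly-A RNA of whole L4 ganglia, with a RIN of at least 7.5, was made into TruSeq stranded mRNA libraries and read on NextSeq instruments, per the labels' protocols. The deposited tables hold estimated counts per gene that the authors made from the reads. The tools were featureCounts 1.6.4, STAR 2.7.2b, cutadapt 2.5 and bcl2fastq 2.20.0.422, with build mRatBN7.2, per the submitters' processing notes. Among the 24 male libraries that were fitted together 74.1% of the deposited estimated counts were whole numbers, and all were rounded before the tests. The settings for strand and for reads shared by several genes are not given in the sources used here.

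From 40982 genes, those passing the edgeR filter (filterByExpr, minimum count 10) were tested with the quasi-likelihood test of edgeR 4.0.16 (R 4.3.3), TMM scaling and Benjamini-Hochberg adjustment over all tested genes, with a threshold of 0.05. The 24 male libraries shared 1 estimate of the spread. A test against 1.5-fold used glmTreat. CPM are counts per M of the TMM-scaled library, and each SE was taken from the fold change and its F statistic. The sexes were compared over all 62 libraries. Counts were also simulated for 18814 genes. There the comparison of sides found 54.0% of genes changed by 1.25-fold, 87.8% by 2-fold and 98.0% by 3-fold, with 6 false calls. The simulation changed far fewer genes than were called in these data, and it drew every library independently. Its shares and false calls therefore check the procedure and do not carry over to this comparison.

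Genes were named by a rule: the 15 largest increases and decreases (called, same sign in 7 pairs, mean log2 CPM not under 1), the 8 largest shifts in CPM each way, up to 4 members of each list each way, the 8 most variable genes and up to 6 genes each way for each comparison with 5 weeks or with females. Genes whose role completes a group were added after their values were seen. Some genes that the rule names are not reported here. The members and lists were chosen with earlier results of these data known. Of 45 lists 44 matched genes. The list of mitochondrial genes matched no gene in the table.

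Replicate numbers were checked for pairing. Deviations from the group mean correlated between the same-numbered ganglia at 0.223 to 0.473 in males at 1 week, where every library matched its own number best, and at 0.198 to 0.353 at 5 weeks. In females the labels give both sides the same animal, and the correlation was 0.0972 to 0.281. Female number 6 matched another number better than its own (0.157 against 0.0972). The main test between the sexes used group means without this pairing. The alternatives were the replicate block, RLE scaling, other filters, DESeq2 1.42.0, limma-voom (limma 3.58.1), fits on fewer libraries, ribosomal RNA genes left out, the hemoglobin share as covariate and each library left out. Libraries of the other groups were used only for the shared spread.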

Additional observations from a re-analysis of the deposited data

Results flagged for a closer look

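In 51 of 378 groups of 7 libraries, formed for the genes named, 1 library lay far from the other 6 by Dixon's criterion. Its nominal level is 1 group in 20, or 18.9 of 378. That number is not a chance level for these groups. Genes of a group share their libraries and are not independent, some were named for their large spread on the injured side, and some stand near 0 CPM. Each value is followed by that of the nearest other library of the same side.

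Injured library 3 was the far one in 22 of these groups. It was low for Bdnf, Gadd45a, Reg3a and Syt4, genes that were higher on the injured side: Bdnf (35.9 CPM, next 49.5 CPM), Gadd45a (74.7 CPM, next 97 CPM), Reg3a (5.17 CPM, next 10.8 CPM) and Syt4 (379 CPM, next 517 CPM). It was high for genes that were lower on the injured side. Among abundant and cytoskeletal genes these were Nefm (7277 CPM, next 5674 CPM), Nefh (5585 CPM, next 4559 CPM), Map1a (1822 CPM, next 1646 CPM) and Chga (125 CPM, next 88.7 CPM). Among channels and receptors they were Scn8a (258 CPM, next 197 CPM), Hcn2 (149 CPM, next 111 CPM), Kcnip3 (124 CPM, next 84.7 CPM), Kcns1 (66.9 CPM, next 41.6 CPM), Chrm2 (28.5 CPM, next 22.2 CPM) and Htr1d (23.2 CPM, next 12.5 CPM). The others were Sema7a (130.2 CPM, next 99.6 CPM), Hapln4 (66.9 CPM, next 46.3 CPM), Pla2g7 (29.9 CPM, next 18.8 CPM), Fads6 (23.5 CPM, next 17.4 CPM), Rem2 (7.78 CPM, next 5.56 CPM), Piwil2 (7.35 CPM, next 5.03 CPM), Glb1l2 (6.51 CPM, next 3.89 CPM) and Sptssb (4.7 CPM, next 2.8 CPM). In each of the 22 it lay on the side towards the opposite ganglia.

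Opposite library 7 was the far one in 10 groups. Interferon-response and complement genes were high in it: C4a (206 CPM, next 55.7 CPM), Slfn4 (61.1 CPM, next 13.8 CPM), Mx1 (51.9 CPM, next 18.3 CPM), Rsad2 (41.3 CPM, next 13.7 CPM), Oasl2 (29.7 CPM, next 9.79 CPM), C3 (16.1 CPM, next 6.28 CPM) and Ifi47 (13.7 CPM, next 5.54 CPM). Injured library 7 was likewise high for 3 of these, C4a (432 CPM, next 238 CPM), Oasl2 (39.6 CPM, next 16.9 CPM) and Ifi47 (28 CPM, next 14.9 CPM). Opposite library 7 was also high for the muscle gene Ckm (13.5 CPM, next 1.17 CPM) and the Fc receptor Fcgr3a (4.82 CPM, next 1.09 CPM), and low for the neuronal gene Vamp1 (959 CPM, next 1074 CPM).

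Number 6 stood apart on both sides for Serpinb1b, in the opposite (515 CPM, next 222 CPM) and in the injured ganglion (464 CPM, next 195 CPM). Opposite library 6 was also far for Ndufs1 (210.3 CPM, next 193 CPM), Pvalb (160.0 CPM, next 144 CPM), Gria2 (38.2 CPM, next 35.8 CPM) and Slc16a3 (0.696 CPM, next 1.06 CPM). Injured library 1 was high for the B cell genes Cd79b and Pax5 and for Gabrb1: Cd79b (11.6 CPM, next 2.83 CPM), Pax5 (5.2 CPM, next 2.66 CPM) and Gabrb1 (8.31 CPM, next 5.69 CPM). Opposite library 4 was far for Sst (23.4 CPM, next 30.03 CPM), Reg3a (2.32 CPM, next 1.12 CPM) and Sprr1a (0.0352 CPM, next 0 CPM). Cxcl14 and Ucn were far in opposite library 2 (2.88 CPM, next 1.32 CPM, and 0.130 CPM, next 0.0413 CPM), Cck in injured library 6 (0.747 CPM, next 1.38 CPM) and Cdh22 in injured library 5 (4.56 CPM, next 3.12 CPM).

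For 13 of the genes named, the log2 difference of sides changed between 1 and 5 weeks in the test of that change. It was more positive at 1 week for Grem1 (1.58, adjusted p = 0.000244), Tph2 (1.15, adjusted p = 0.00688), Ccl2 (0.70, adjusted p = 0.0411), Setd7 (0.55, adjusted p = 0.00249), Itga7 (0.41, adjusted p = 0.000244), Stat3 (0.22, adjusted p = 0.0102) and Parp1 (0.22, adjusted p = 0.0102). It was more negative at 1 week for Cdh22 (-1.62, adjusted p = 0.00166), Cdk18 (-1.14, adjusted p = 7.18e-06), Cpne9 (-1.08, adjusted p = 0.000178), Chrm2 (-0.70, adjusted p = 0.0164), Prrt2 (-0.41, adjusted p = 0.00147) and Elovl6 (-0.33, adjusted p = 0.0163). The call for Ccl2 was lost in 20 of the 24 fits that left out 1 library, and with RLE scaling, with no filter and with limma-voom. That for Parp1 was lost with no filter (0.20, adjusted p = 0.0643) and without opposite library 4 of 5 weeks (0.19, adjusted p = 0.0524), and that for Stat3 without opposite library 2 or injured library 5 of 5 weeks. With the replicate number as a block, 11 other genes named also changed between weeks: Spp1 (0.55, adjusted p = 4.65e-05), Gfra3 (-0.42, adjusted p = 0.0107), Kcnj10 (-0.25, adjusted p = 0.0113), Trpv2 (0.22, adjusted p = 0.0116), Reg3b (1.54, adjusted p = 0.0184), Pde6b (-1.20, adjusted p = 0.0187), Lyz2 (0.98, adjusted p = 0.0217), Idi1 (-0.32, adjusted p = 0.0308), C3 (0.92, adjusted p = 0.0419), Ankrd1 (1.68, adjusted p = 0.0469) and Serpinb1b (-0.26, adjusted p = 0.0484). Between males and females at 1 week it changed for 16 genes named. It was more positive in males for Ro60 (1.85, adjusted p = 8.75e-15), Oprm1 (1.78, adjusted p = 8.87e-08), Zbtb41 (1.65, adjusted p = 1.19e-10), Arfgef3 (1.18, adjusted p = 4.22e-10), Plcxd3 (1.08, adjusted p = 2.97e-09), Phip (0.80, adjusted p = 3.85e-08), Dmxl1 (0.73, adjusted p = 4.22e-10), Kcnh7 (0.69, adjusted p = 0.00244) and Ntrk3 (0.32, adjusted p = 0.0084). It was more negative in males for Cpne9 (-0.68, adjusted p = 0.0149), Miat (-0.55, adjusted p = 0.000448), Leng8 (-0.49, adjusted p = 8.35e-05), Pcgf1 (-0.49, adjusted p = 0.000863), Nmnat1 (-0.46, adjusted p = 0.000349), Tdp2 (-0.35, adjusted p = 0.000604) and Stx16 (-0.22, adjusted p = 0.000427). That for Ntrk3 was lost with only the 28 libraries of 1 week (0.31, adjusted p = 0.059). With the block 6 other genes named also changed between the sexes: Scn3a (0.42, adjusted p = 0.000307), Kcnj10 (-0.23, adjusted p = 0.00762), Fn1 (1.12, adjusted p = 0.0259), Piezo1 (0.56, adjusted p = 0.0272), Fabp7 (-0.36, adjusted p = 0.0325) and Hbb (2.45, adjusted p = 0.039). Sex, table and any batch that goes with the table cannot be told apart in that comparison.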

How the results depend on the processing

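For the comparison of sides the count of 8913 called genes moved by more than 1.5 times under 2 settings. It was 5463 with the hemoglobin share as covariate and 948 against 1.5-fold. It stayed within 1.5 times with RLE scaling (8910), no filter (8717 of 32511), the stricter filter (8105 of 15263), DESeq2 (8902), limma-voom (9236), only the 14 libraries (8915) and ribosomal RNA genes left out (8911), and was 8237 to 9032 when 1 library was left out. With the replicate number as a block it was 10230, 5186 higher and 5044 lower. The count of 40 genes whose difference of sides changed between weeks was 499 with the replicate block, 138 by DESeq2 and 25 to 98 when 1 library was left out. The count of 218 between males and females was 524 with the block, 324 by DESeq2 and 276 by limma-voom. The cause of these moves was not tested.

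With the hemoglobin covariate the calls of 17 genes named ended. Cd79b reversed in sign, to -0.44, without passing the test. Tac1, Calca, Trpv1, Scn11a, Sst and Fn1 kept their direction at 0.43, 0.39, -0.26, -0.45, -0.55 and 0.79 and were not called. The log2 fold changes of Mpo, Mmp8, Hbb, Aurkb, Bub1b, Pax5 and Ckm moved to 0.04, 0.31, 0.07, 0.51, 0.46, 0.89 and -0.58, and those of Chrm2, Sox10 and Ro60 to -0.27, 0.09 and 0.24. Hbb is itself part of the covariate. The direction of no other named gene reversed in the settings run. With the block Ckm was not called (-1.20, adjusted p = 0.0631), and by limma-voom neither (-0.85, adjusted p = 0.24). With the block the lists of induced peptides, complement, chemokines and myelin had 2, 1, 2 and 20 lower genes, and beside the changes given in the text it changed no other call of a gene named in the comparison of sides. Genes with few counts, such as Vip and Csrp3 in opposite ganglia, have folds that depend on the prior count. On simulated counts, with far fewer changed genes than were called here, 54.0% of genes changed by the smallest fold were found. Small changes can be missed, and the share missed in these data was not measured.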
